A study of Mus musculus with 10 samples.

Results

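Hippocampal cells tagged while male mice met a female (appetitive) were compared with cells tagged while male mice received foot shocks (aversive). The comparison was defined by the sample labels alone and holds 4 of the 10 libraries of the study, 2 appetitive (replicates 1 and 2) and 2 aversive (replicates 1 and 3). Reads had been counted on 53379 genes in each library, and 19754 genes had enough counts to be tested. The question was whether the tagged populations differ in gene expression between the experiences.

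All mice were 5-week-old males, and cells were taken from microdissected hippocampal regions, with 8 mice pooled for each condition by the labels. For mock, the study's methods give fewer mice. Active cells were marked by 2 viruses. AAV9-c-Fos-tTA makes a transactivator under control of c-Fos, and this factor turns on EYFP from AAV9-TRE-ChR2-EYFP unless doxycycline (Dox) is present. Animals were off Dox for 48 h around the experience. The tag therefore reports c-Fos promoter activity over that whole window and depends on which cells took up both viruses. The aversive mice received 4 shocks of 1.5 mA, each lasting 2 s. The appetitive mice spent 1 h with a female in a clean home cage, by the labels. Mock libraries (n = 3) came from home cage mice, and neutral libraries (n = 3) came from mice placed in the conditioning cage without either stimulus. Appetitive, aversive and mock libraries shared 1 kit and sequencer (single reads of 40 bp), whereas the neutral libraries were made with another kit and read as pairs of 100 bp. The sources used here do not say if replicate libraries stem from different pools of mice. The p-values therefore measure the spread between libraries, which may be technical. That spread was estimated over all 10 libraries. Mock and neutral replicates also set it, so the p-values do not measure the spread of the compared groups alone.

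Neurons that fire strongly during an experience switch on immediate early genes such as Fos, and the sparse ensemble marked in this way is studied as a memory engram. The ventral hippocampus carries signals about threat and about reward, and its output neurons reach the amygdala, nucleus accumbens and prefrontal cortex. Excitatory pyramidal neurons form most of its neuronal population. A dissociated hippocampus also yields myelinating oligodendrocytes, astrocytes, microglia, vascular cells, ciliated ependymal cells and choroid plexus.

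Total counts were 27159427 and 39172609 in the aversive libraries and 26647573 and 16968588 in the appetitive libraries. Levels are given as CPM, the usual unit of library-scaled counts, here with TMM normalization between libraries. In these 4 libraries 1 CPM stood for 12.8 to 49.9 counts. A floor of 3 counts, the limit set here for fold bounds, stood for 0.0601 to 0.235 CPM. This floor covers counting error only. The appetitive libraries held fewer detected genes, with 14144 and 14658 genes at 1 count or more. The aversive libraries had 16849 and 24189, and mock libraries 20596 to 30899. The part of this difference in the results below was not tested.

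The tagged cells were checked against cell type markers. The myelin and oligodendrocyte list (12 genes) took 30.3% and 3.48% of all counts in the aversive libraries and 38.8% and 10.5% in the appetitive libraries, so replicates of a group differed more than the groups. Markers shared by all neurons (14 genes) took 0.074% and 0.0875% of counts in aversive and 0.0437% and 0.0361% in appetitive libraries. Summed in CPM, this list was at 1006 and 687 in aversive and 911 and 321 in appetitive libraries, so the groups overlapped in that unit. Of 13 tested pyramidal neuron markers 9 had a fitted change below 0, with a median log2 fold change of -0.86. Without aversive replicate 3, 6 of these markers were above 0 and 4 below, with a median of 0. In both appetitive libraries 5 had 0 counts, and in both aversive libraries 2. Nrgn, a postsynaptic protein of pyramidal neurons, was at 209 and 149 CPM in aversive and 515 and 21.3 CPM in appetitive libraries. Slc17a7, another of these markers, was at 16.8 and 25.7 CPM in aversive and 0.704 and 0.629 CPM in appetitive libraries. Gad1, which makes the transmitter GABA, was at 36.4 and 6.93 CPM in aversive libraries and had 0 counts in both appetitive libraries. Neuronal markers were thus present, at a far smaller share of counts than oligodendrocyte markers. In bulk libraries, fewer cells of a type and less RNA per cell cannot be told apart.

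**Figure D1:**
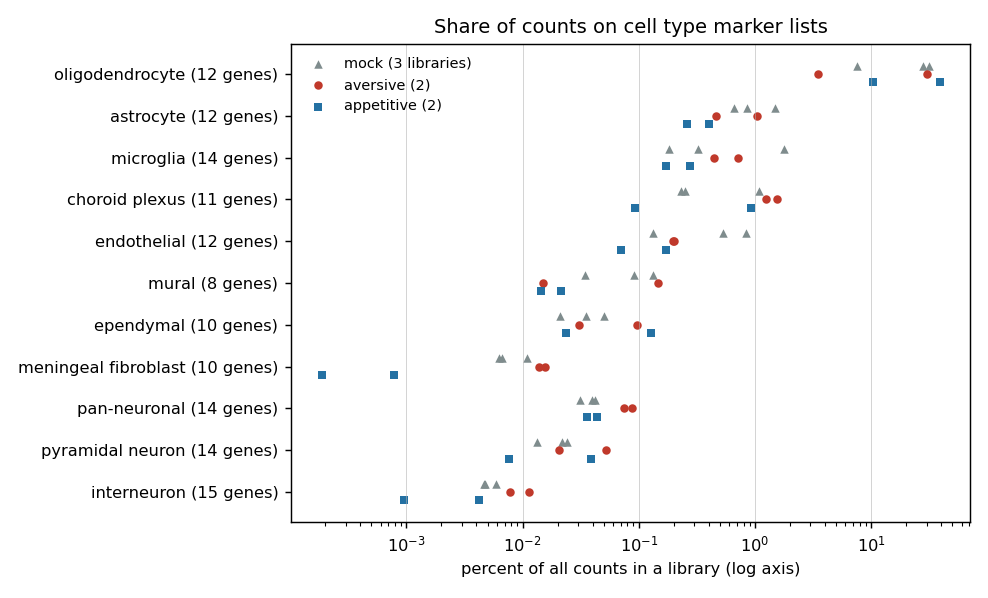
Percent of all counts in a library (x axis, log scale) that fell on each marker list (y axis, with the number of genes), for 3 mock, 2 aversive and 2 appetitive libraries, each point being 1 library. The oligodendrocyte points lie between 3.48% and 38.8% in the compared libraries, whereas the pan-neuronal points lie under 0.1%.

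None of the 12 oligodendrocyte genes was called in edgeR or DESeq2 and none had an unadjusted p under 0.05, with a fitted change above 0 for all 12, a median log2 fold change of 1.51 and 7 genes higher in both appetitive than in both aversive libraries (8.34% of all tested genes did so, and 20.1% were lower in both). The astrocyte list (12 genes) had 11 fitted changes below 0 and no call by either tool or at an unadjusted p under 0.05, with the glutamate transporter Slc1a2 at 1167 and 2105 CPM in aversive and 765 and 803 CPM in appetitive libraries. Of 14 microglial genes 13 had fitted changes below 0, again with no call by either tool or unadjusted p under 0.05, but only 8 of 14 when aversive replicate 1 was left out. All 11 choroid plexus genes had fitted changes below 0 and 1 was called, F5, the gene of coagulation factor V. Its levels were 19.9 and 7.23 CPM in aversive libraries, with 0 counts in both appetitive libraries, at least 57.9-fold lower (adjusted p = 0.0378), and the call was lost without appetitive replicate 1. All 8 mural cell markers and 9 of 10 meningeal fibroblast markers also had fitted changes below 0. Neither list had an edgeR call, and 4 of each had an unadjusted p under 0.05 (DESeq2 called 4 and 5 lower). Without aversive replicate 3, 5 mural markers were above 0 and 2 below, with a median log2 fold change of 0.11. For meningeal markers 8 stayed below 0 and 1 was above. Summed over the list, meningeal markers were at 187 and 123 CPM in aversive and 3.91 and 7.02 CPM in appetitive libraries. Of 12 interneuron markers tested, 8 had 0 counts in both appetitive libraries, none was called and 5 had an unadjusted p under 0.05 (DESeq2 called 3 lower). Among all tested genes, 56.8% had a fitted change below 0 and 20% had an unadjusted p under 0.05. In both appetitive libraries, 4752 of the 19754 tested genes had 0 counts. The part of these marker levels in the gene differences below was not tested.

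Between appetitive and aversive libraries 356 genes passed an adjusted p of 0.05 in edgeR's quasi-likelihood test, 1.8% of the genes tested. Of these, 333 were lower in appetitive cells (1.69% of tested genes) and 23 were higher (0.116%). They were near all-or-none differences. Of the 333 lower genes, 317 were under 1 CPM in both appetitive libraries, 70 had 0 counts there, and 275 were at 10 CPM or more in both aversive libraries. Of the 23 higher genes, 21 were under 1 CPM in both aversive libraries and 20 were at 10 CPM or more in both appetitive libraries.

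Protein-coding genes made up 350 of the 356 called genes. The median over the lower genes of the group mean was 36.5 CPM in aversive and 0.0653 CPM in appetitive libraries, against 22.2 CPM in mock and 39.9 CPM in neutral libraries. For the higher genes it was 0.0952 CPM in aversive and 53.5 CPM in appetitive libraries, against 13.1 CPM in mock and 22.4 CPM in neutral libraries. The fitted log2 fold change over all tested genes had a median of -0.48, and of -0.34 or -0.88 when libraries were scaled by DESeq2's size factors or by library size alone. Levels of list members below are read against that shift. Counts of called list members are read against 1.8% of tested genes for edgeR. For DESeq2 on 10 libraries the share was 23.3% of genes with an adjusted p.

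**Figure D2:**
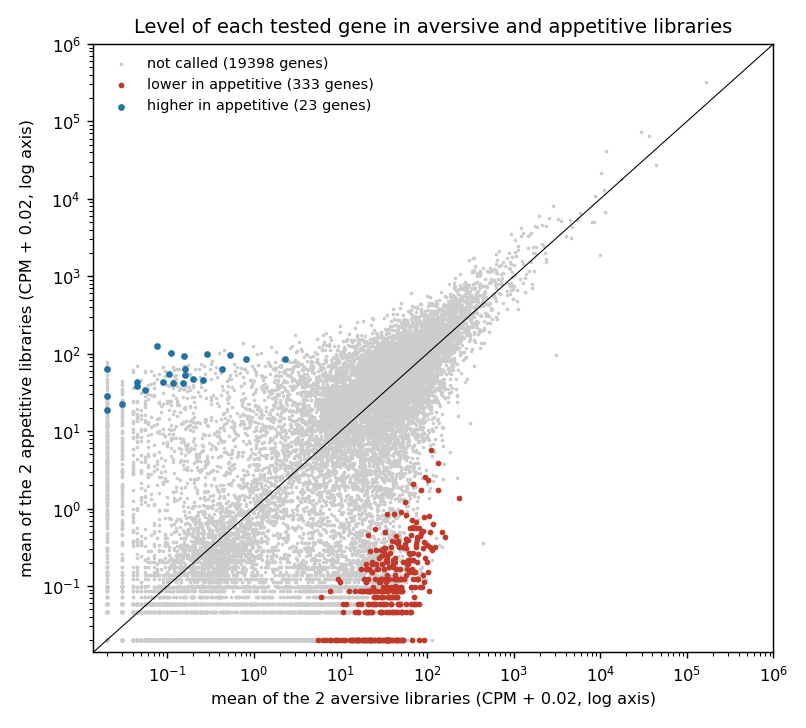
Mean CPM of the 2 aversive libraries (x axis) and of the 2 appetitive libraries (y axis), both with 0.02 added and on log scales, for the 19754 tested genes, with the line of equal level. The 333 genes lower in appetitive libraries sit along the bottom edge and the 23 higher genes along the left edge, near 0 CPM in one of the groups.

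The number of calls changed with the libraries fitted and with the tool. With 2 libraries a group, edgeR called 0 genes when only the 7 libraries of the shared kit were fitted (3864 at an unadjusted p under 0.05, smallest adjusted p = 0.138), 0 with the 7 tagged libraries and 0 with the 4 compared libraries alone, whereas DESeq2 called 857 higher and 3099 lower genes in the 10 libraries. All 356 genes had the same sign of change in each fit that tested them. Their 2 groups did not overlap in the main test, so refits of the same libraries could hardly change that sign.

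The genes higher in appetitive cells were led by Pramef8, Exosc9 and Nufip1, among others. Pramef8 (ENSMUSG00000046862, chromosome 4 from 143412426 to 143421091) belongs to the PRAME gene family. It had 1 and 3 counts in the aversive libraries and 2043 and 1812 counts in the appetitive libraries, which is 0.05 and 0.0601 CPM against 159.8 and 94.9 CPM (log2 fold change 11.08, SE 1.56, adjusted p = 0.024). Exosc9 (ENSMUSG00000027714, chromosome 3 from 36552606 to 36565727) encodes a subunit of the RNA exosome, the complex that degrades and trims RNA from its end, and its exons overlap Ccna2 on the other strand. It was at 0.1 and 0.0802 CPM in aversive and 156 and 49.1 CPM in appetitive libraries (log2 fold change 10.12, SE 1.47, adjusted p = 0.024). In mock libraries it was at 18.2 to 31.1 CPM, between the groups. Counting ignored strand, so Exosc9 reads in the overlap cannot be told from Ccna2 reads.

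Levels joined by against are aversive first and appetitive second. Nufip1 encodes an RNA-binding factor for assembly of box C/D small nucleolar RNPs, which guide methylation of ribosomal RNA. It was at 0.2 and 0.341 CPM in aversive and 95.3 and 101 CPM in appetitive libraries, so the groups lay far apart and the appetitive replicates close together. Eif4enif1 (ENSMUSG00000020454, chromosome 11 from 3202392 to 3244588), which carries the cap-binding protein eIF4E into the nucleus, had 45 and 111 counts in the aversive and 1530 and 931 counts in the appetitive libraries (log2 fold change 5.23, SE 1.06, adjusted p = 0.0371), and its call was lost without either aversive replicate.

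Rnf113a1 (ENSMUSG00000036537, chromosome X from 37191245 to 37192467), a RING finger protein of the spliceosome, had 1 and 0 counts in aversive and 564 and 638 counts in appetitive libraries. The ratio of its group levels was 2709, with a 95% Poisson interval from 486 to 106989 for the counting error of the low group. Fndc10, a gene with a fibronectin type III domain, had 1 and 0 counts in aversive and 692 and 628 counts in appetitive libraries. Cbr4, a carbonyl reductase of mitochondrial fatty acid synthesis, was at 0.1 and 0.261 CPM in aversive and 57.9 and 37.2 CPM in appetitive libraries, a call lost without aversive replicate 1. Gtpbp8, a GTP-binding protein gene whose exons overlap Nepro, was at 0.05 and 0.14 CPM against 54.9 and 28.2 CPM. Gm20604 was at 24.2 and 20.5 CPM in appetitive libraries, but 55.4% of its 40-base words also occur in other genes and its exons overlap Gon7, Moap1 and Ubr7, so its count is uncertain.

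Phrf1, Zdhhc12 and Rgmb were the remaining leading genes. Phrf1, a PHD and RING finger protein gene whose exons overlap Irf7 on the other strand, was at 0.4 and 0.421 CPM against 90.9 and 35 CPM. Zdhhc12, which attaches palmitate to proteins, was at 0.05 and 0.421 CPM against 45.4 and 46.9 CPM, and its exons overlap Pkn3. Rgmb, a co-receptor of bone morphogenetic proteins, was at 0.05 and 0.12 CPM against 74.3 and 36 CPM. Calls of Phrf1 and Rgmb were lost without either aversive replicate, and that of Zdhhc12 without aversive replicate 1.

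In some higher genes 1 appetitive library carried most of the level. 1190002N15Rik was at 16.1 and 91 CPM in appetitive replicates 1 and 2, and Memo1, a gene of cell motility, at 9.31 and 74.4 CPM. Thoc6, a subunit of the mRNA export complex TREX, and the F-box gene Fbxl4 were chosen after their values were seen. Thoc6 was at 126 and 0.838 CPM and Fbxl4 at 119 and 6.18 CPM in appetitive replicates 1 and 2, so replicate 1 stood far above replicate 2 for both. Even there, both appetitive libraries lay above both aversive libraries. The same held for all 23 higher genes, and for 8.34% of tested genes. The 23 genes were picked by a test on these same libraries, so their lack of overlap is not independent of it. Calls of 1190002N15Rik and Memo1 were lost without either aversive replicate.

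**Figure D3:**
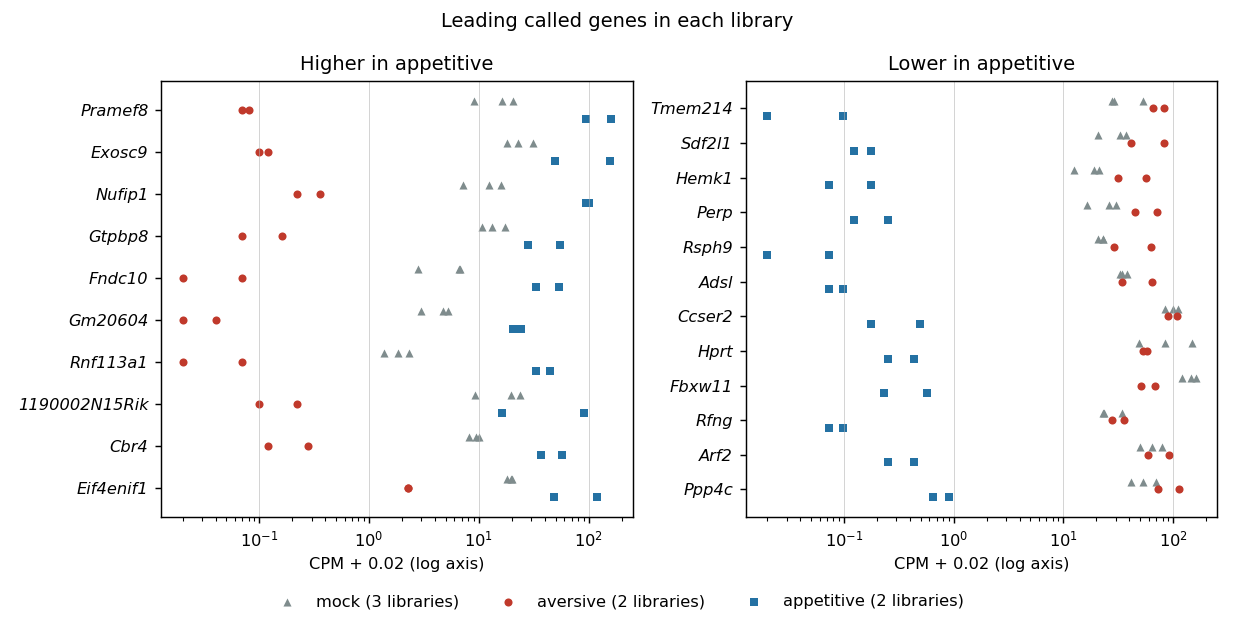
CPM + 0.02 (x axis, log scale) of the leading called genes (y axis) in each of 3 mock, 2 aversive and 2 appetitive libraries, each point being 1 library, for 10 genes higher (left) and 12 genes lower (right) in appetitive libraries. Aversive and appetitive points do not overlap for any gene shown, and mock points of most lower genes lie near the aversive ones.

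The genes lower in appetitive cells were led by Tmem214, Sdf2l1, Hemk1 and Perp. Tmem214 (ENSMUSG00000038828, chromosome 5 from 30868012 to 30879180), an endoplasmic reticulum membrane protein gene, had 1661 and 3281 counts in the aversive and 1 and 0 counts in the appetitive libraries. The ratio of its levels was 2373, with a counting interval from 426 to 93729 (adjusted p = 0.024). Sdf2l1 (ENSMUSG00000022769, chromosome 16 from 17130138 to 17132383), a cofactor of the chaperone BiP, was at 82.5 and 41.6 CPM in aversive and 0.156 and 0.105 CPM in appetitive libraries (log2 fold change -8.88, SE 1.18, adjusted p = 0.024). Perp, a membrane protein gene induced by p53, was at 71.2 and 44.7 CPM against 0.235 and 0.105 CPM. Hemk1, a methyltransferase of release factors, was at 56.8 and 31.7 CPM against 0.156 and 0.0524 CPM. For each of these genes all 3 mock libraries were above both appetitive libraries, with 27.7 to 52.7 CPM for Tmem214 and 20.5 to 37.4 CPM for Sdf2l1.

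Purine metabolism held 2 called genes among 13 tested, both lower in appetitive cells (1.69% of all tested genes were called lower). Adsl (ENSMUSG00000022407, chromosome 15 from 80948490 to 80970946), the lyase that acts at separate steps of purine synthesis, was at 33.8 and 64 CPM in aversive and 0.0782 and 0.0524 CPM in appetitive libraries. With 2 counts in all in the appetitive libraries, the ratio of its levels was 779.9, with a counting interval from 216 to 6440.0 (adjusted p = 0.024). Hprt (ENSMUSG00000025630, chromosome X from 52988137 to 53021659), the salvage enzyme for hypoxanthine and guanine, was at 57.2 and 53 CPM against 0.235 and 0.419 CPM (log2 fold change -7.37, SE 1.04, adjusted p = 0.024). The mock libraries held 32.8 to 38.3 CPM of Adsl and 48.4 to 147 CPM of Hprt. The median log2 fold change of the 13 genes was -0.05, but -4.19 without appetitive replicate 2 and -0.81 without appetitive replicate 1. Paics, which makes an intermediate of the synthesis, was at 60.2 and 126 CPM in aversive and 135 and 273 CPM in appetitive libraries (log2 fold change 1.13, SE 0.73, adjusted p = 0.429).

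Members of vesicle coat and phosphatase families were also lower in appetitive cells. Arf2 (ENSMUSG00000062421, chromosome 11 from 103966739 to 103985337), a small GTPase of Golgi vesicle coats, was at 90.7 and 59.5 CPM in aversive and 0.235 and 0.419 CPM in appetitive libraries (log2 fold change -7.82, SE 1.11, adjusted p = 0.024). Its paralog Arf1 was at 97.2 and 83 CPM against 195 and 112 CPM (log2 fold change 0.77, SE 0.67, adjusted p = 0.612), and Arf4 at 197 and 111 CPM against 270.4 and 317 CPM. Arf2 was the only gene called by edgeR among 21 tested Arf and Sar GTPases (DESeq2 called 1 higher and 2 lower). Their median was 0.77, but -0.14 without appetitive replicate 1. Whether Arf2 differs from its paralogs in its change was not tested. Ppp4c (ENSMUSG00000030697, chromosome 7 from 126785866 to 126792496), the catalytic subunit of protein phosphatase 4, was at 113 and 72.6 CPM in aversive and 0.626 and 0.89 CPM in appetitive libraries (log2 fold change -6.93, SE 0.99, adjusted p = 0.024). Ppp2ca, the catalytic subunit of protein phosphatase 2A, was at 354 and 70.6 CPM against 863 and 628 CPM (log2 fold change 1.81, SE 0.84, adjusted p = 0.258).

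Of 27 tested serine/threonine phosphatase genes, edgeR called 4, all lower in appetitive cells (DESeq2 called 1 higher and 5 lower). The share of all tested genes called lower by edgeR was 1.69%. Ppp4r3b, a regulatory subunit of phosphatase 4, was at 51.3 and 135 CPM in aversive and 2.58 and 2.46 CPM in appetitive libraries, and Ppp2r5d, a regulatory subunit of phosphatase 2A, at 58.7 and 22.9 CPM against 0.235 and 0.157 CPM. The fourth is on chromosome 18 and is not named. The median of the 27 genes was 0.34, with 14 fitted changes above 0, but -0.31 without either appetitive replicate. Fbxw11, the substrate adaptor of an SCF ubiquitin ligase, was at 69 and 51.4 CPM against 0.547 and 0.21 CPM, and Rfng, a glycosyltransferase that modifies Notch, at 27.6 and 35.5 CPM against 0.0782 and 0.0524 CPM. Ccser2 was at 109 and 90.3 CPM in aversive and 0.156 and 0.471 CPM in appetitive libraries, where mock libraries held 84.6 to 109.6 CPM.

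Genes of the axoneme, the microtubule core of motile cilia, held 3 calls among 33 tested, all lower in appetitive cells. Among all tested genes 1.69% were called lower, and 4752 of 19754 had 0 counts in both appetitive libraries. DESeq2 called 20 lower. All 33 had a fitted change below 0, 11 were lower in both appetitive than in both aversive libraries (20.1% of tested genes), and 18 had 0 counts in both appetitive libraries. The median log2 fold change was -7.80, or -5.28 with genes at 0 set to their bound. Rsph9 (ENSMUSG00000023966, chromosome 17 from 46122035 to 46144216), a radial spoke head protein gene, was at 29 and 62.5 CPM in aversive libraries and had 0 and 1 counts in the appetitive libraries. Rsph1 (ENSMUSG00000024033, chromosome 17 from 31255019 to 31277383), of the same structure, was at 26.1 and 135 CPM in aversive libraries and had 0 counts in both appetitive libraries, at least 343-fold lower (adjusted p = 0.0253). Tekt1, a tektin of axonemal microtubules, was at 20.4 and 35.9 CPM and 0 counts, at least 119.9-fold lower.

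Summed over the 33 genes, the axoneme list was at 158 and 693 CPM in aversive, 3.99 and 40.1 CPM in appetitive and 101 to 321 CPM in mock libraries. Aversive replicate 3 carried much of this. Without it, 13 of the 33 had a fitted change below 0 and 8 above, with a median of 0. Ependymal markers, from the ciliated cells of the ventricle wall, had 8 of 10 fitted changes below 0 and 1 call. That was Fam183b, at 8.11 and 54.5 CPM in aversive libraries, with 0 counts in both appetitive libraries (adjusted p = 0.049), lost without any 1 of aversive replicate 3 and appetitive replicates 1 and 2. Tppp3, another of these markers, was at 309 and 275 CPM in aversive and 496 and 934 CPM in appetitive libraries. The part of ependymal markers in the axoneme result was not tested.

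Several genes of synaptic transmission were lower in appetitive cells, the direction of 93.5% of all calls. Of 29 tested genes for synaptic vesicles, release and scaffolds edgeR called 4 (DESeq2 called 8), all lower, and the list's median was -1.26. By comparison, edgeR called 1.69% of all tested genes lower. Syn1 (ENSMUSG00000037217, chromosome X from 20860511 to 20921004), a synapsin that tethers synaptic vesicles, was at 110.4 and 106 CPM in aversive and 0.547 and 0.0524 CPM in appetitive libraries (log2 fold change -8.52, SE 1.62, adjusted p = 0.0337). Stx1a, a SNARE protein of the presynaptic membrane, was at 33.2 and 38.2 CPM in aversive libraries and had 1 and 1 counts in the appetitive libraries. Nlgn3, a postsynaptic adhesion protein gene, was at 20.2 and 63.6 CPM and 0 counts, at least 179-fold lower, and its call was lost without either appetitive replicate.

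Other genes of the same machinery did not pass the test. Snap25, the SNARE partner of Stx1a, was at 422 and 123 CPM in aversive and 577 and 154 CPM in appetitive libraries (log2 fold change 0.43, SE 0.89, adjusted p = 0.902). Vamp2, the SNARE of the vesicle, was at 212 and 145 CPM against 156 and 205 CPM (log2 fold change 0.02, SE 0.63, adjusted p = 1). Of 14 pan-neuronal markers 2 were called lower, Syn1 and Nefl, the light neurofilament chain (DESeq2 called 1 higher and 5 lower). Nefl was at 99.2 and 50.6 CPM in aversive and 0.0782 and 0.524 CPM in appetitive libraries (log2 fold change -7.92, SE 1.61, adjusted p = 0.0371). Exons of Syn1 overlap Araf on the other strand and exons of Nefl overlap Nefm.

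Receptors for fast transmitters held no edgeR call. For comparison, 20% of all tested genes had an unadjusted p under 0.05, and 4752 of 19754 had 0 counts in both appetitive libraries. Of 17 tested ionotropic glutamate receptor genes 11 had fitted changes below 0, with a median of -1.18, and 5 had an unadjusted p under 0.05 (DESeq2 called 1 higher and 4 lower). Gria2, the AMPA receptor subunit that sets calcium permeability, was at 56.8 and 552 CPM in aversive and 204 and 91.8 CPM in appetitive libraries (log2 fold change -1.04, SE 1.41, adjusted p = 0.79). Grik2, a kainate receptor subunit, was at 3.05 and 9.24 CPM against 217 and 5.13 CPM (log2 fold change 4.17, SE 1.79, adjusted p = 0.242), so appetitive replicate 1 stood apart. Of 12 tested GABA-A receptor genes 8 had fitted changes below 0, 4 had 0 counts in both appetitive libraries and 3 had an unadjusted p under 0.05 (DESeq2 called 2 lower). Gabrb1, a beta subunit, was at 18.5 and 279.6 CPM in aversive and 0.0782 and 0.524 CPM in appetitive libraries (log2 fold change -8.90, SE 2.13, adjusted p = 0.0642). Without aversive replicate 3 the glutamate receptor median was 1.37, with 10 genes above 0. The GABA-A receptor median was -5.31, and -2.03 without aversive replicate 3.

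Immediate early genes, the class the tag is built on, held no call. Of 20 tested genes 2 had an unadjusted p under 0.05, against 20% of all tested genes (DESeq2 called 2 lower). Fitted changes were below 0 for 12 and the median was -0.16, or 0.61 without aversive replicate 1. Fos was at 918 and 146 CPM in aversive and 1054 and 1530.3 CPM in appetitive libraries (log2 fold change 1.28, SE 0.97, adjusted p = 0.528), and mock libraries held 455 to 1647 CPM. Junb was at 748 and 227 CPM against 702 and 183 CPM, and Dusp1, a phosphatase of MAP kinases, at 961 and 268 CPM against 535 and 521 CPM. Arc, a regulator of AMPA receptor trafficking that was picked after its values were seen, was at 91.9 and 32.9 CPM against 167 and 267 CPM (log2 fold change 1.80, SE 1.42, adjusted p = 0.553). Both appetitive libraries lay above both aversive libraries for 3 of the 20 genes (8.34% of tested genes), Fos, Fosb and Arc, and below them for another 3 (20.1% of tested genes), Nr4a2, Nr4a3 and Egr3.

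Heat shock and dissociation stress genes (12 tested) also held no call, by edgeR, DESeq2 or at an unadjusted p under 0.05, and had a median of 0.03 (-0.51 to 0.62 without a single library). Atf3, a stress transcription factor, was at 1092 and 96.1 CPM in aversive and 812 and 292 CPM in appetitive libraries. Genes of DNA methylation (12 tested) held no call, with 2 at an unadjusted p under 0.05, against 20% of all tested genes (DESeq2 called 2 higher). Dnmt3a, which adds new methyl marks, was at 26.9 and 145 CPM against 57.3 and 75.7 CPM (log2 fold change -0.37, SE 0.99, adjusted p = 0.946). Tet2, which oxidizes methylcytosine, was at 45.1 and 99 CPM against 45.9 and 53 CPM.

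Genes of RNA handling held calls in both directions. Exosc9 was the only gene called by edgeR among 17 tested genes of the RNA exosome and its cofactors (DESeq2 called 3 higher and 1 lower), of which 15 had fitted changes above 0 and whose median was 0.99. Without a single library the count above 0 ranged from 10 to 16. Exosc4, another ring subunit, was at 11.6 and 1.26 CPM in aversive and 244 and 41.5 CPM in appetitive libraries (log2 fold change 4.48, SE 1.29, adjusted p = 0.111), whereas Zcchc7, a subunit of a nuclear polyadenylation complex that feeds the exosome, was at 56.3 and 99.5 CPM against 4.14 and 12.8 CPM (log2 fold change -3.20, SE 1.12, adjusted p = 0.164). Within box C/D RNP assembly (11 tested) Nufip1 was higher and its partner Znhit3 lower in appetitive cells. Znhit3 (ENSMUSG00000020526, chromosome 11 from 84910950 to 84916366) was at 28.2 and 30.3 CPM in aversive libraries and had 0 and 1 counts in the appetitive libraries (adjusted p = 0.0325), and its exons overlap Myo19 on the other strand.

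The general RNA polymerase II machinery and Mediator carry signals from transcription factors to the polymerase. They had 4 edgeR calls among 68 tested genes, all lower in appetitive cells (1.69% of all tested genes were called lower). DESeq2 called 6 higher and 9 lower. Taf11 (ENSMUSG00000024218, chromosome 17 from 27901122 to 27909844), a subunit of the promoter-binding factor TFIID, was at 48 and 86.9 CPM in aversive libraries and had 0 counts in both appetitive libraries, at least 288-fold lower (adjusted p = 0.0241). Taf6, another TFIID subunit, was at 55.8 and 33.2 CPM against 0.0782 and 0.0524 CPM. The Mediator subunits Med24 and Med7 were at 11.8 and 33.9 CPM and 18.2 and 23.1 CPM in aversive and at 0.156 and 0.21 CPM and 0.0782 and 0 CPM in appetitive libraries, and the call of Med24 was lost without appetitive replicate 1. Of the 68 genes 41 had fitted changes above 0, but 33 without appetitive replicate 2. Exons of Taf11, Taf6 and Med7 overlap a gene on the other strand.

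Of 353 tested genes named Zfp, zinc finger genes that mostly encode DNA-binding proteins, 7 were called lower and 1 higher in appetitive cells. Zfp524, the higher gene, had 0 counts in both aversive libraries and 24.7 and 12.6 CPM in appetitive libraries, at least 124-fold higher (adjusted p = 0.0405). Of its 40-base words 47.8% also occur in other genes. Zfp358, the lower gene with the smallest p, was at 63.4 and 40.3 CPM in aversive and 0.0782 and 0.0524 CPM in appetitive libraries (adjusted p = 0.024). The other lower genes were Zfp612, Zfp386, Zfp961, Zfp30, Zfp423 and Zfp956, of which Zfp961 and Zfp423 had 0 counts in both appetitive libraries. The call of Zfp524 was lost without aversive replicate 3, that of Zfp30 without appetitive replicate 1 and that of Zfp423 without either appetitive replicate. Exons of Zfp956 overlap Zfp783, another zinc finger gene. In all, 2.27% of the Zfp genes were called, against 1.8% of tested genes.

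**Figure D4:**
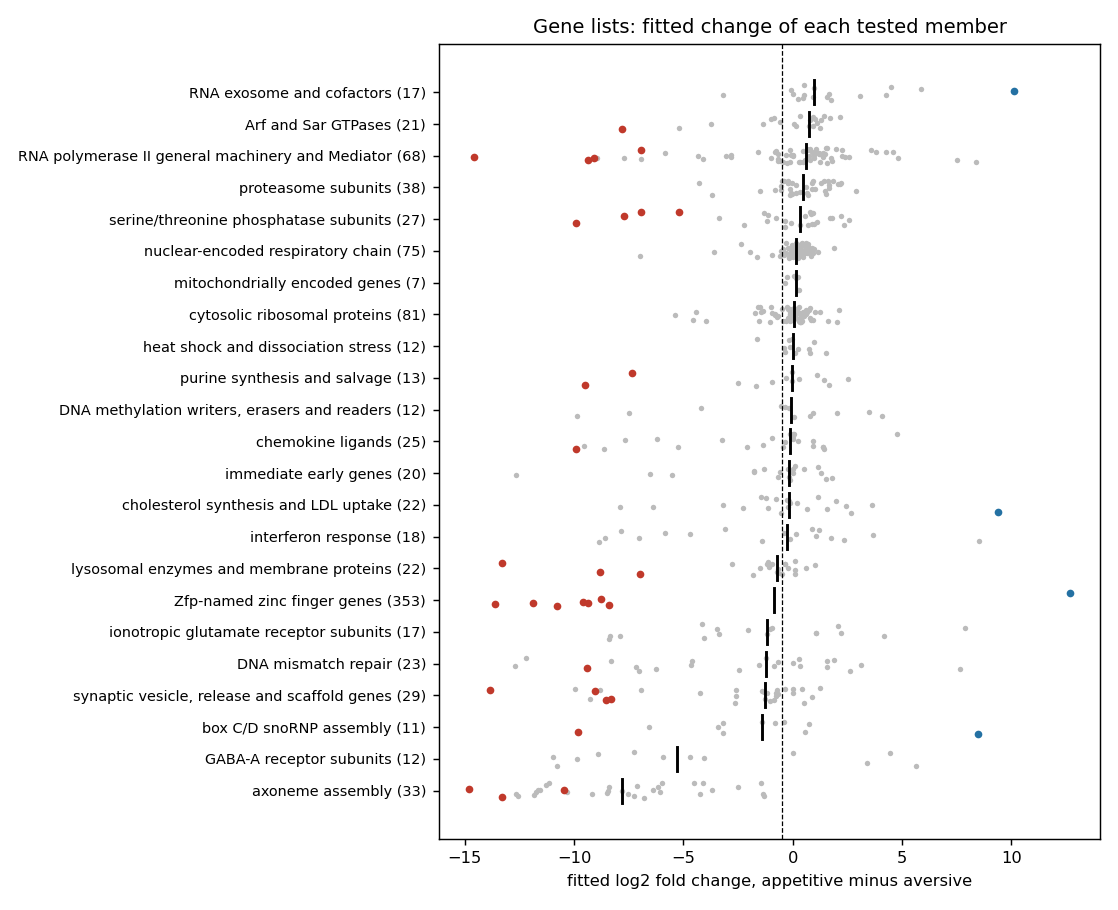
Fitted log2 fold change, appetitive minus aversive (x axis), of each tested member of 23 gene lists (y axis, number tested in parentheses), with black bars at list medians, red points for genes called lower, blue points for genes called higher and a dashed line at the median of all tested genes, -0.48; only called genes are drawn for the Zfp list. The axoneme list has its median at -7.80 and the GABA-A receptor list at -5.31, and most other medians lie between -1.5 and 1.

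The cytosolic ribosomal protein, nuclear respiratory chain and proteasome lists held no edgeR call. None of 81 cytosolic ribosomal protein genes was called, with a median of 0.06 and 1 unadjusted p under 0.05 (DESeq2 called 2 lower). That median was -1.41 without appetitive replicate 1, 0.51 without appetitive replicate 2 and -0.69 with library size alone. None of 75 nuclear genes of the respiratory chain was called, with a median of 0.17 (-0.27 without appetitive replicate 1, -0.17 with library size alone) and 1 unadjusted p under 0.05 (DESeq2 called 1 lower). None of 38 proteasome genes was called either, with a median of 0.46 and 4 unadjusted p under 0.05 (DESeq2 called 1 in each direction). Rps3, a protein of the small ribosomal subunit, was at 461 and 138 CPM in aversive and 972 and 252 CPM in appetitive libraries (log2 fold change 1.03, SE 0.85, adjusted p = 0.581). Cox6a1, a subunit of cytochrome oxidase, was at 2883 and 1617 CPM against 4395 and 529 CPM (log2 fold change 0.13, SE 0.95, adjusted p = 1). Only 7 of the 356 called genes had 10 counts or more in each of the 4 libraries, so a fit limited to such genes (4920) leaves out nearly all calls before it is made.

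The mock libraries were set beside the called genes. Mock values entered the filter, the scaling and the shared spread of the test, though not the contrast itself. All 3 mock libraries were above both aversive libraries for 23 of 23 genes higher in appetitive cells, against 24.7% of tested genes, and lay between the groups for 18 of 23, against 0.921%. All 3 mock libraries were above both appetitive libraries for 333 of 333 lower genes, against 38.9% of tested genes. They lay between the groups for 128 of 333, against 2.47%. Neutral libraries were above both aversive libraries for 23 of 23 higher genes (19.3% of tested genes) and between the groups for 15 (0.683%). They were above both appetitive libraries for 331 of 333 lower genes (27.2%) and between the groups for 60 (1.14%). These shares are therefore not independent of the test. All called genes also had groups that did not overlap, and only such genes can hold other libraries between the groups. Among the 1648 tested genes with both appetitive libraries higher, mock lay between for 182 and neutral for 135. Among the 3962 with both lower, these numbers were 487 and 226. The low group of most called genes was under 1 CPM, which left little room below it.

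Genes that looked switched off were also common between replicates of a group. Taking 10 CPM or more as on and under 1 CPM as off, 473 tested genes were on in both aversive and off in both appetitive libraries (2.39% of tested genes) and 34 the reverse (0.172%). Between the 2 aversive libraries 2637 genes were on in one and off in the other, and between the 2 appetitive libraries 3362 genes. Pairs of mock libraries gave 54 to 67 such genes and pairs of neutral libraries 407 to 937. Of 7096 genes on in every mock library, 13.4% and 6.9% were off in aversive replicates 1 and 3, and 32.2% and 20.2% in appetitive replicates 1 and 2. Off in both libraries of a group were 2.17% of them in aversive and 10.9% in appetitive cells. The spread between replicates was therefore of the same all-or-none kind as the differences between groups, and its part in the calls was not tested. The test used a spread shared by all 4 groups, to which the closer mock and neutral replicates also contributed.

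**Figure D5:**
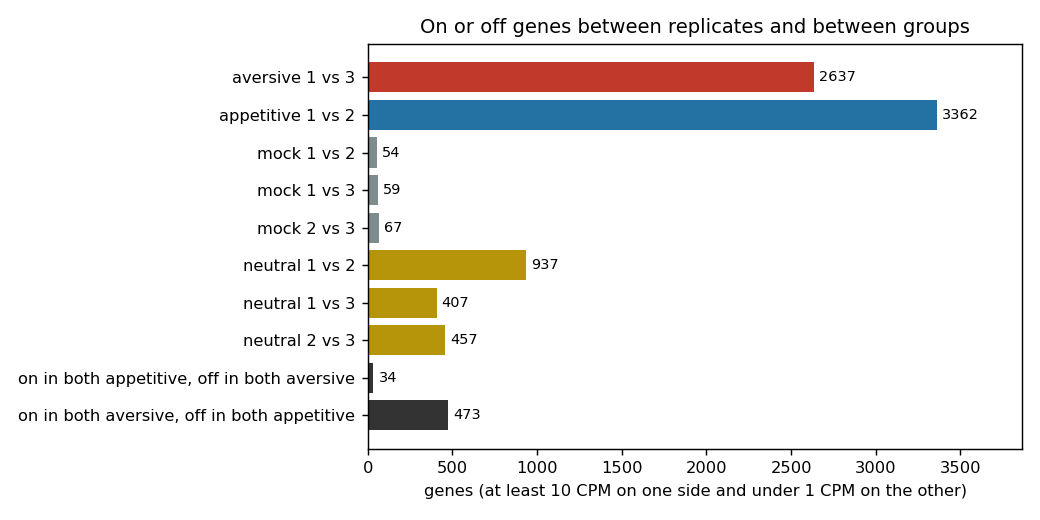
Number of tested genes (x axis) at 10 CPM or more on one side and under 1 CPM on the other, for each pair of replicates within a group (colored bars) and between the groups, where both libraries of each group had to qualify (dark bars). Replicate pairs differ by 2637 genes in aversive and 3362 in appetitive cells, more than the 54 to 67 in mock, while 34 and 473 genes differ between groups.

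Promoters were searched for the cAMP response element, the 8 bases TGACGTCA through which CREB acts on activity-regulated genes. RefSeq promoters of GRCm38.p6, from 250 bases before to 50 after a start, were found for 270 of the 333 lower and 13 of the 23 higher genes. The element was in 4 of the 270 (1.48%) and 0 of the 13, against 3.28% of tested genes with a promoter and 2.03% of all genes in the table. It is its own reverse complement, so both strands were searched at once. The 4 windows of 30 bases are given 5′ to 3′ on the strand of the gene, with the element in capitals.
Syn1: caaaggctgacTGACGTCActcactagccc
Taf11: atccgtgggcgTGACGTCAtcgcggcgcga
Atg16l2: tgctgccgcccTGACGTCAtggagtccccg
Dhrs7b: cttaagcagacTGACGTCAtttagaccgca
They lie at chrX:20921059-20921088 (minus strand) for Syn1, chr17:27907754-27907783 (minus) for Taf11, chr7:101302088-101302117 (minus) for Atg16l2, an autophagy gene, and chr11:60830559-60830588 (plus) for Dhrs7b, a reductase of ether lipid synthesis. The last pair was named because of the match. The AP-1 element TGANTCA, through which Fos and Jun proteins act, was in 5.93% of the 270 lower genes and in 2 of the 13 higher genes (both strands searched), against 6.56% of tested genes with a promoter and 8.97% of all genes in the table.

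The study's own leading genes of this contrast, 20 in each direction, were all measured. Of these 40 genes 36 were called, 16 higher and 20 lower, and appetitive and aversive libraries did not overlap for any of the 40. Among the lower ones, Stau2, which carries RNA into dendrites, was at 59.6 and 140.1 CPM against 0.313 and 0.0524 CPM. Ugdh, which makes UDP-glucuronate, was at 39.3 and 117 CPM against 0.156 and 0.314 CPM. The list was chosen on these samples, so it is not independent evidence of its direction.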

How the data were processed

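RNA was extracted from sorted hippocampal material (called nuclei in the study's results and cells in its methods), amplified with a SMART-Seq v4 poly(A) kit and sequenced. Reads cut to their first 40 bp were aligned by the authors to mm10 (STAR). They counted reads per Ensembl gene with featureCounts (Subread) without strand, and deposited raw counts for 53379 genes per library. Versions of these tools are not given in the sources used here. Normalization and tests by the authors are not part of these files. Positions and exons came from GENCODE M21 (GRCm38), which matched 53274 identifiers.

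From the deposited counts, edgeR 4.0.16 in R 4.3.3 was run with TMM normalization (factors 0.48 to 1.45) and filterByExpr. One quasi-likelihood model held 4 groups and 10 libraries, which share the spread (biological coefficient of variation 122%), and tested appetitive minus aversive, two-sided, with Benjamini-Hochberg adjustment over 19754 genes. Standard errors came from the F statistics. DESeq2 1.42.0 was an alternative. A group with 0 counts gives a lower bound against 3 counts per library (the highest such floor of the group), and 1 to 3 counts give a ratio with an exact Poisson 95% interval. The bound takes the mean of the other group. Steps were tested on simulated data. At the fitted spread, edgeR called 0 of 100 genes changed 16-fold, 2 of 100 changed 64-fold and 0 unchanged genes. DESeq2 called 23 and 66 of the changed genes, and 210 unchanged genes. Absence of an edgeR call therefore does not show that a gene is unchanged, and DESeq2 calls can include unchanged genes. Every group was simulated with the same spread per gene, whereas aversive and appetitive replicates differed more than mock replicates in the data. The simulation therefore does not show how many edgeR calls here are false.

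Library totals lay between 16968588 and 67650693 counts. With 2 libraries against 2, an exact permutation test cannot go below p = 0.333, so none is given for single values. Named genes were the 12 with the smallest p in each direction, called genes of the lists, up to 4 abundant members of lists without a call and of marker lists, and paralogs. Those on chromosome 18, and a few others that are not reported here, are counted but not named. Members and lists were chosen with earlier results of these data known.

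Alternatives were other sets of libraries in the fit, DESeq2, other scalings and filters, and each compared library left out.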

Additional observations from a re-analysis of the deposited data

How the results depend on the processing

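The number of calls did not hold over the alternatives. All 356 calls kept their direction in each that tested them. Their groups did not overlap, so refits of these libraries could hardly reverse it. Genes called higher and lower in appetitive cells were 23 and 333 in the main test. They were 0 and 0 with edgeR on the 7 libraries of one kit, on the 7 tagged libraries, on the 4 compared libraries (smallest adjusted p = 0.138, 0.169 and 0.711) and on genes with at least 10 counts in each compared library, which leaves 7 of the 356, with 3864, 2246, 794 and 534 genes at an unadjusted p under 0.05. DESeq2's Wald test called 857 and 3099 on all 10 libraries, 837 and 3117 on the 7 of one kit, and 362 and 1231 on the 4 compared. Of DESeq2's calls on 10 libraries 78.3% were lower, against 93.5% in the main test. No filter on low counts gave 199 and 1071, DESeq2's size factors in edgeR 24 and 278, and library size alone 10 and 272. Leaving out 1 library gave 62 to 175 higher and 643 to 1285 lower genes, of which 284 to 339 were among the 356.

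The study's threshold (adjusted p under 1e-05, over 4-fold) was passed by 0 genes in the main test (3941 at an unadjusted p under 0.05), by 871, 604 and 269 in DESeq2 on 10, 7 and 4 libraries, and by 5 without a filter. The median log2 fold change of -0.48 became -0.10 on the 4 libraries, 0 in DESeq2 on 10 and on 7 libraries, -0.34 with DESeq2's size factors, -0.88 with library size alone, -0.12 without a filter, -0.025 with 10 counts required, and -2.25 to 0 with 1 library left out. Other filters also change the genes behind it. Over the genes of the main test it was -0.51 without a filter, and -0.20 and -0.11 in DESeq2 on 10 and 7 libraries. Both appetitive libraries exceeded both aversive libraries for 1648 genes, and for 1041 with library size alone. Of 66 called genes named, 15 lost the call with library size alone, and 4 to 7 without a single library. Their adjusted p ranged up to 0.711 over the alternatives.

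No paired analysis was possible because the groups share only replicate number 1. Levels under 0.0601 to 0.235 CPM, the floor of 3 counts, rest on few counts.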

Other observations

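Lysosomal genes, which degrade material taken up by cells, held 3 calls by edgeR and 3 by DESeq2 among 22 tested, all lower in appetitive cells. Of all tested genes edgeR called 1.69% lower. Neu1, the lysosomal sialidase, was at 129 and 62.2 CPM in aversive and 0.156 and 0.262 CPM in appetitive libraries (log2 fold change -8.80, SE 1.30, adjusted p = 0.024). Man2b1, an alpha-mannosidase, was at 69.6 and 66.9 CPM against 0.782 and 0.314 CPM. Naglu, which degrades heparan sulfate, was at 36.1 and 19.96 CPM in aversive libraries and had 0 counts in both appetitive libraries. The cathepsin gene Ctsb was at 2079 and 659.7 CPM in aversive and 865 and 1276 CPM in appetitive libraries (log2 fold change -0.36, SE 0.62, adjusted p = 0.858), and the median of the 22 genes was -0.70, or -0.18 without aversive replicate 1.

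Chemokine ligands, the attractants of immune cells, held 1 edgeR call among 25 tested (DESeq2 called 5 lower). Ccl25 was at 19.9 and 40.9 CPM in aversive libraries and had 0 and 1 counts in appetitive libraries, and its exons overlap Elavl1. Ccl4, released by activated microglia, was at 654 and 71.8 CPM in aversive and 583 and 267 CPM in appetitive libraries (log2 fold change 0.23, SE 1.20, adjusted p = 1). None of 18 interferon response genes was called, with 6 at an unadjusted p under 0.05, against 20% of all tested genes (DESeq2 called 1 higher and 5 lower). Ifitm3, an antiviral membrane protein gene, was at 166 and 185 CPM against 342 and 46.2 CPM. Of 12 endothelial markers 1 was called lower in appetitive cells, Tek, the angiopoietin receptor, at 104 and 221 CPM against 0.235 and 0.576 CPM, and this call was lost without either appetitive replicate. Itm2a, another of these markers, was at 833 and 260.0 CPM in aversive and 1532 and 297 CPM in appetitive libraries. Rfc4, a subunit of the clamp loader used in DNA replication and repair, was the only gene called by edgeR among 23 mismatch repair genes (DESeq2 called 1 higher and 7 lower), at 44.1 and 57 CPM against 0.156 and 0 CPM.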
